A study of Mus musculus with 2 samples.

Results

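The genes described here are the enzymes, transporters and regulators that link glucose breakdown to oxygen supply: the subunits and sensors of the hypoxia-inducible factors (HIF), a set of well-known HIF targets, the glycolytic enzymes and the carriers of glucose and lactate. They were listed by name for these roles, 40 mouse genes in all. Of these, 37 had a probe set that the platform annotation assigns to a single gene symbol, among 18194 such genes on the array. No value is given for Bnip3l, Gpi1 and Eno1, which had no probe set of that kind. Retina of embryos that carry the loss-of-function genotype Sox11-/- was set against retina of wild-type littermates; the strain was C57BL/6 and the age embryonic day 18 in both groups. Sox11 encodes a DNA-binding regulator active in immature neurons. Each genotype had 1 Affymetrix array, and the labels do not say whether RNA of several retinas was pooled on it. There was no replicate, so no error or test can be given, every difference is one between 2 arrays, and precision is limited by their number.

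The brightest of 6 probe sets for Sox11 read 252.4 in the knockout and 3205.7 in the wild type, a log2 ratio of -3.64. The knockout was lower with 5 of the 6, and the remaining one read 701.7 in the knockout and 328.8 in the wild type. Which stretch of Sox11 is missing was not given. The median intensity over the array was 19.7 in the knockout and 17.6 in the wild type, and the mean without 2% of values at each end was 100 on both. The 3′ over 5′ signal of Gapdh was 0.821 in the knockout and 0.818 in the wild type, and that of beta actin 1.21 in the knockout and 1.29 in the wild type. The 18 hybridisation controls had log2 ratios from -0.06 to 0.31.

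In cells with enough oxygen, the prolyl hydroxylases Egln1, Egln2 and Egln3 modify the HIF alpha subunits Hif1a and Epas1, and the Vhl protein marks the modified subunits for destruction. When oxygen is short, the alpha subunits persist, pair with Arnt and switch on genes for glucose uptake, glycolysis, blood vessel growth and mitochondrial turnover. This control acts mainly on HIF protein, which an array does not measure. The retina is known for making lactate from glucose even in the presence of oxygen, and its vessels grow under the control of Vegfa.

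HIF binds short elements built around ACGTG or GCGTG. Promoter sequences of RefSeq (assembly GRCm38.p6) covering 250 bases before to 50 bases after a gene's start were listed for 33 of the 36 members that passed the low-value filter. Stretches of 120 bases upstream of the start are shown for 4 members, to make visible what these elements look like in the gene set: Ldha and Pgk1 for the bright glycolytic enzymes, Bnip3 for the HIF targets, and P4ha2 because it had the highest ratio of all members, a choice made after its value was seen. They lie, on GRCm38.p6, at chr7:46845659-46845778, plus strand (Ldha); chrX:106186899-106187018, plus strand (Pgk1); chr7:138909537-138909656, minus strand (Bnip3); and chr11:54100786-54100905, plus strand (P4ha2). Each reads 5′ to 3′ on the strand of the gene, and capitals mark ACGTG or GCGTG on either strand (CACGT or CACGC as printed), with overlapping copies run together.
P4ha2: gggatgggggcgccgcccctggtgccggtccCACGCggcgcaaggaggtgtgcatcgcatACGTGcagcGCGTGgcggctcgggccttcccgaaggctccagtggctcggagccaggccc
Bnip3: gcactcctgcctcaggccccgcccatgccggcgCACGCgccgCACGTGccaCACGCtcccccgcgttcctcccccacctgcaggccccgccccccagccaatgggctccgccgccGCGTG
Ldha: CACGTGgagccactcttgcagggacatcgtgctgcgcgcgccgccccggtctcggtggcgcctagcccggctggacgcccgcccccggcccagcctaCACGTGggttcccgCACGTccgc
Pgk1: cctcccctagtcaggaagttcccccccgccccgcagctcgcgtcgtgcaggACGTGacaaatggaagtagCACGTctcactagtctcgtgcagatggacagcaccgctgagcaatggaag

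ACGTG was found in the promoter windows of 24 of the 33 members (72.7%), against 30% of 9391 genes past the filter and 21.8% of all 27025 genes with a window. GCGTG was found in 23 members (69.7%), against 57.7% and 35.2% in the same larger sets. Genes with several start sites count once if any window holds the letters. Counted by window, ACGTG was in 27 of 46 windows of members (58.7%) and in 25.4% of the windows of genes past the filter. Many of the members are known as HIF targets, so these counts describe the list and are no result about the knockout. The median log2 ratio was -0.09 in the 24 members with ACGTG and -0.01 in the 9 without, and it was -0.01 both in all 2813 genes past the filter that hold ACGTG and in the 6578 that do not. A match is a run of letters and does not show that HIF binds there.

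Most of the 36 members that passed the filter had similar intensities in both retinas. Ratios are knockout minus wild type of log2(intensity + 5), where intensity is on the authors' linear scale, so that changes of dim genes are understated. A gene passed if its higher intensity was at or above 18.6, the median of all values on both arrays. Of the 36 members, 33 were within 1.5-fold of level on this scale, and none reached 2-fold, which 1.37% of all 11554 genes past the filter did. Only P4ha2 was at least 1.5-fold higher in the knockout, against 3.81% of all genes. Epas1 and Adm had ratios past 1.5-fold in the lower direction, which is 2 of 36 members against 2.17% of all genes. Adm lay under the filter in the knockout, and counted from the filter value it does not reach 1.5-fold. With all intensities under the filter set to 18.6, a setting added after the data were seen, Adm had a ratio of -0.47 and only Epas1 and P4ha2 remained past 1.5-fold. With so few members, these shares are near the background. In whole retina, fewer cells of a type and less RNA per cell cannot be told apart.

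**Figure D1:**
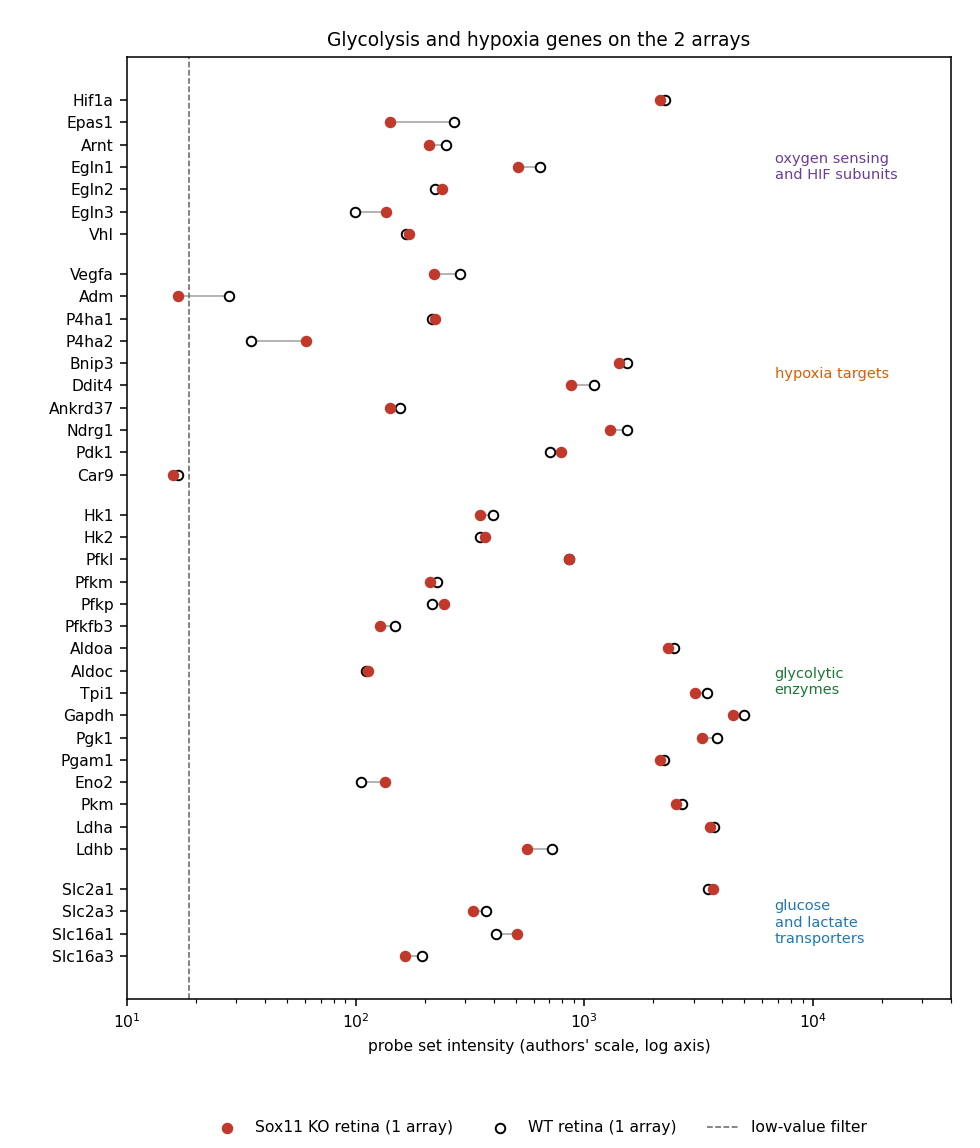
Intensity of each measured member (log axis, the authors' linear scale) in the Sox11 knockout retina (filled) and the wild-type retina (open), 1 array each, with the low-value filter of 18.6 as a dashed line. Most pairs of points touch; Epas1 and Adm lie clearly left in the knockout and P4ha2 clearly right, and Car9 lies under the filter on both arrays.

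The members as a whole had a median log2 ratio of -0.09, with the middle part of the distribution (25th to 75th percentile) between -0.22 and 0.06. The median of all genes past the filter was -0.01. A negative ratio was seen in 24 of 36 members, against 52.1% of all genes. This comparison depends on how bright the members are, because bright genes as a whole read lower on the knockout array. When all genes past the filter were divided by mean level into 4 bands of equal size, the median ratio was 0.06 in the dimmest band and -0.06 in the brightest. The brightest band held 20 of the 36 members, and 16 of these had a negative ratio, against 65.6% of all genes in that band. The median difference of a member from the median of its own band was -0.04: 21 members lay below their band's median and 15 above it.

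**Figure D2:**
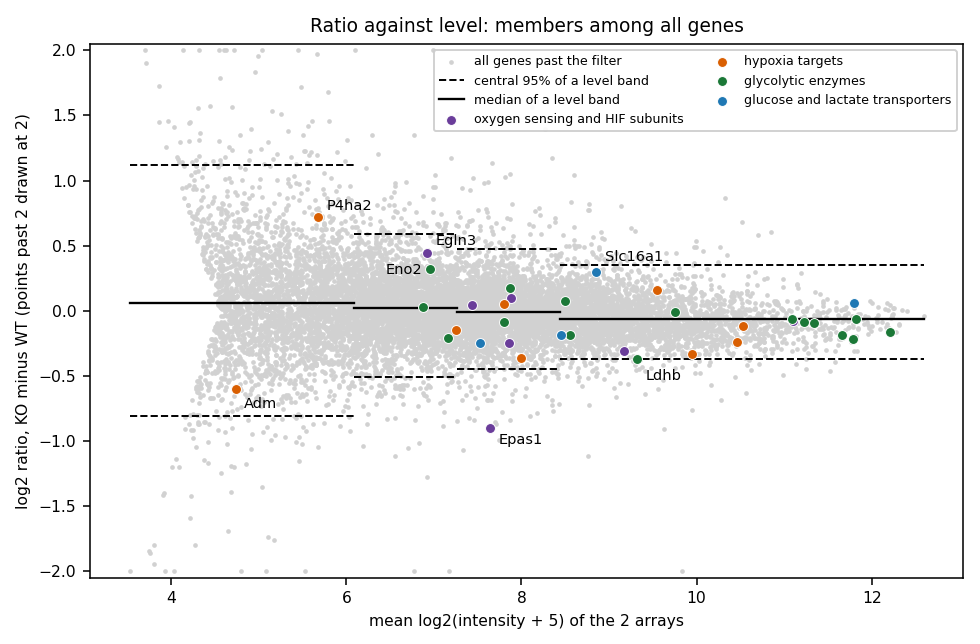
Log2 ratio (knockout minus wild type) against mean log2(intensity + 5) for all genes past the filter (grey) and the members (coloured by role), with the median (solid) and the central 95% (dashed) of each of 4 level bands; points past 2 are drawn at 2. Epas1 is the only member outside the central 95% of its band. Of the brightest glycolytic enzymes, Ldha lies at the median of the top band, and Gapdh, Pgk1 and Tpi1 lie under that median.

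The oxygen-sensing machinery held both the lowest member and one of the highest. Epas1, the HIF alpha subunit best known from vessels and glia, read 140.9 in the knockout and 267.3 in the wild type, a log2 ratio of -0.90. Its other probe set read 11.3 in the knockout, below the filter, and 26 in the wild type; it passed through the wild type alone and was at least 1.4-fold lower, counted from the filter value. Both probe sets were lower in the knockout, but the amount is measured only with the brighter one. Among the 2888 genes of its level band, only 3 had a ratio as low as that of Epas1, itself included, and in all 11554 genes there were 64. Epas1 was the only one of the 36 members outside the central 95% of its band, which ran from -0.45 to 0.47. Epas1 kept its direction and its 1.5-fold difference in all 13 alternative settings, and its ratio was nearest to 0, at -0.84, with a pseudocount of 18.6. Several of these settings, such as other filters, could not change its value.

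Hif1a, the alpha subunit that acts in nearly all cells, read 2138.9 in the knockout and 2260.1 in the wild type with its brightest probe set, a log2 ratio of -0.08. The passing probe sets of Hif1a differed in sign, from -0.53 to 0.32, so that no direction can be given for it. The difference between the ratios of Hif1a and Epas1 was 0.82. As a measure of how closely probe sets of the same gene repeat each other, their log2 ratios had a pooled SD of 0.26 over 5612 genes, and a difference of 2 ratios would have an SD of 0.37 on that basis. This is a spread within arrays and not between animals. Arnt, the shared partner of the alpha subunits, had a ratio of -0.25 with its brightest probe set and 0.41 and 0.50 with the other passing ones.

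The prolyl hydroxylases had ratios of both signs. Egln3, itself a HIF target in many cells, read 135.8 in the knockout and 98.6 in the wild type, a log2 ratio of 0.44, and its second probe set read 50.9 in the knockout and 28.4 in the wild type, with a ratio of 0.74. Both probe sets of Egln3 were higher in the knockout. Egln1, the main oxygen sensor of most cells, read 513.2 in the knockout and 637.9 in the wild type, with a ratio of -0.31, but its second probe set gave 0.11. Egln2 was close to level, at 238.2 in the knockout and 222.5 in the wild type, with a ratio of 0.10. Vhl, the subunit that recognises hydroxylated HIF, read 171.2 in the knockout and 165.6 in the wild type, with 0.05. The ratio of Egln1 minus that of Egln3 was -0.75, and Egln1 minus Egln2 gave -0.41, both past the SD of 0.37 for such a difference. Egln2 minus Egln3 gave -0.35, inside it. These differences use the brightest probe sets. With its second probe set, at 0.11, Egln1 was nearly equal to Egln2 at 0.10. The 7 genes together had a median of -0.08, with 4 negative and 3 positive, and the sign of this median was positive in 3 of the alternative settings.

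HIF targets outside glycolysis had a median of -0.14 over 9 genes, with 6 negative. Vegfa, the growth factor of vessels, read 220.4 in the knockout and 284.2 in the wild type, a log2 ratio of -0.36, while its second probe set was nearly level at 96.9 in the knockout and 92.1 in the wild type, with 0.07. Ddit4, an inhibitor of the growth kinase mTOR that is induced by low oxygen and by stress, read 877.4 in the knockout and 1104.0 in the wild type, a ratio of -0.33 from its single probe set. Adm, the vasodilator peptide adrenomedullin, read 16.6 in the knockout, below the filter, and 27.8 in the wild type. It passed only through its wild-type value, and against the filter value it was at least 1.49-fold lower, with a log2 ratio of -0.60. That ratio was inside the central 95% of its band, from -0.81 to 1.12, and it was -0.40 with a pseudocount of 18.6.

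The other targets were closer to level, except P4ha2. Bnip3, a protein of the outer mitochondrial membrane that promotes removal of mitochondria, read 1414.7 in the knockout and 1537.6 in the wild type, with a ratio of -0.12. Ankrd37, an ankyrin repeat protein, read 140.3 in the knockout and 155.5 in the wild type, with -0.14. Both lay within the probe set SD of level. The 5 probe sets of Ndrg1, a hypoxia-induced gene of differentiating cells, ran from -0.24 for the brightest to 0.14. Pdk1, the kinase that holds pyruvate back from the mitochondria, was higher with all 4 of its probe sets, by 0.12 to 0.16, and the brightest read 788.0 in the knockout and 704.7 in the wild type. Car9, the carbonic anhydrase often used as a hypoxia marker, stayed below the filter on both arrays, at 15.9 in the knockout and 16.6 in the wild type.

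P4ha2 and P4ha1 encode alpha subunits of the collagen prolyl hydroxylase. P4ha2 read 60.6 in the knockout and 34.9 in the wild type, a log2 ratio of 0.72 from its single probe set, while P4ha1 read 222.7 in the knockout and 214.6 in the wild type, with a ratio of 0.05. P4ha1 minus P4ha2 gave -0.67. P4ha2 lay in the dimmest band, whose central 95% reached 1.12, and with a pseudocount of 18.6 its ratio was 0.57, under 1.5-fold. On the same array, all 7 measured markers of mesenchyme past the filter, a collagen-making tissue, were higher: their summed intensity was 607.0 in the knockout and 75.7 in the wild type, and Col3a1 was at least 13.6-fold higher, Dcn at least 7.17-fold and Lum at least 2.87-fold, counted from the filter value because the wild type lay under it. Of the 7, 6 passed only through the knockout value. Their part in the value of P4ha2 was not tested.

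The glycolytic enzymes were near level. All 16 that were measured lay within 1.5-fold of level, from -0.37 for Ldhb to 0.32 for Eno2, with a median of -0.09 and 12 negative. Most are bright: 11 lay in the top band, whose own median was -0.06. Against the medians of their bands, 9 of the 16 were lower and 7 higher. In 13 alternative settings the median stayed negative, between -0.19 and -0.01. It was nearest to 0 after loess and quantile normalization, which remove the dependence of the ratio on level. After loess it was -0.01, against -0.03 for all genes past the filter, and after quantile normalization -0.02, against -0.03. The lowest value came with scaling on hybridisation controls, where all genes had -0.11. The negative sign alone thus does not set the enzymes apart from all genes.

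Along the pathway, the entry steps were mixed. Hk1, the hexokinase of brain and retina, read 347.4 in the knockout and 396.5 in the wild type, with a ratio of -0.19 that its second probe set did not share (0.37). Hk2, the insulin- and hypoxia-regulated form, read 365.8 in the knockout and 347.8 in the wild type, with 0.07. The phosphofructokinase subunits had ratios of -0.01 for Pfkl, -0.09 for Pfkm and 0.18 for Pfkp, and all 3 differences between subunits were inside the SD of 0.37. All 3 probe sets of Pfkp were higher, from 0.18 to 0.36. Pfkfb3, which makes the sugar phosphate that activates phosphofructokinase, had a ratio of -0.21 with its brightest probe set and 0.39 with the other.

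In the aldolase and triose steps, which follow, Tpi1 and Gapdh were lower with every probe set. Aldoa read 2323.6 in the knockout and 2459.8 in the wild type, and its 5 probe sets were spread around level from -0.08 to 0.10. Aldoc, the aldolase of brain, read 113.2 in the knockout and 110.9 in the wild type, with 0.03. Tpi1, the triose phosphate isomerase, was lower with all 3 probe sets and read 3038.9 in the knockout and 3449.2 in the wild type with the brightest, a ratio of -0.18. Gapdh, the next enzyme, was read from the array's 3 control probe sets, the ones that carry its symbol alone. All 3 were lower, from -0.17 to -0.10, and the brightest read 4467.0 in the knockout and 5011.9 in the wild type.

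Pgk1, the phosphoglycerate kinase, was lower with all 3 probe sets, from -0.21 to -0.14, and its brightest read 3274.0 in the knockout and 3800.8 in the wild type. Pgk1 lies on the X chromosome, and the embryos differed in sex-linked transcripts: Xist read 922.7 in the knockout and 12.3 in the wild type, and the Y-linked Kdm5d 3.5 in the knockout and 130.4 in the wild type. The part of this difference in the value of Pgk1, or of any other gene, was not tested and cannot be told apart from genotype. Pgam1 and Pkm, for the mutase and pyruvate kinase, read 2131.5 and 2515.9 in the knockout, against 2228.4 and 2684.1 in the wild type, with ratios of -0.06 and -0.09. Eno2, the enolase of neurons, went the other way, at 133.5 in the knockout and 105.6 in the wild type, a ratio of 0.32 from a single probe set.

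Of the lactate dehydrogenase subunits, Ldhb was the lowest of all glycolytic members. Ldha, the form that favours lactate production and a HIF target, read 3534.0 in the knockout and 3696.1 in the wild type, a ratio of -0.06, close to the median of its band. Ldhb, the form that favours lactate use, read 558.6 in the knockout and 722.0 in the wild type, with a ratio of -0.37. All 4 probe sets of Ldhb were lower, from -0.42 to -0.36, and only 2.56% of the genes in its band had a ratio as low as the brightest. The ratios of Ldha and Ldhb differed by 0.30, inside the SD of 0.37 for a difference of 2 ratios. Ldhb stayed lower in the 12 settings that gave it a value, between -0.47 and -0.33; all its probe sets can match several transcripts, so the remaining setting gave none.

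Among the transporters, no common direction was seen. Slc2a1, the glucose transporter of barrier tissues, read 3635.3 in the knockout and 3477.8 in the wild type, with probe sets between -0.03 and 0.26. Slc2a3, the glucose transporter of neurons, read 324.2 in the knockout and 369.1 in the wild type, and its 4 probe sets ran from -0.18 for the brightest to 0.46 for one that lay under the filter in the wild type. Slc16a1, a carrier of lactate and pyruvate found in most tissues, was higher at 507.0 in the knockout and 410.5 in the wild type, a ratio of 0.30 at percentile 96.9 of its band. Slc16a3, the lactate exporter of glycolytic cells, was lower at 163.6 in the knockout and 195.3 in the wild type, with -0.25. Each rests on a single passing probe set. The carriers Slc16a1 and Slc16a3 differed by 0.55 in their ratios. Of 13 pairs of related genes compared, 5 were further apart than 0.37: this pair, Hif1a with Epas1, P4ha1 with P4ha2, and Egln1 with each of Egln2 and Egln3. The comparison used brightest probe sets only, and the passing probe sets of Hif1a and of Egln1 differed in sign. A distance of 1 SD is a low bar, and the share of other gene pairs that pass it was not computed, so the count is no result about the members.

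**Figure D3:**
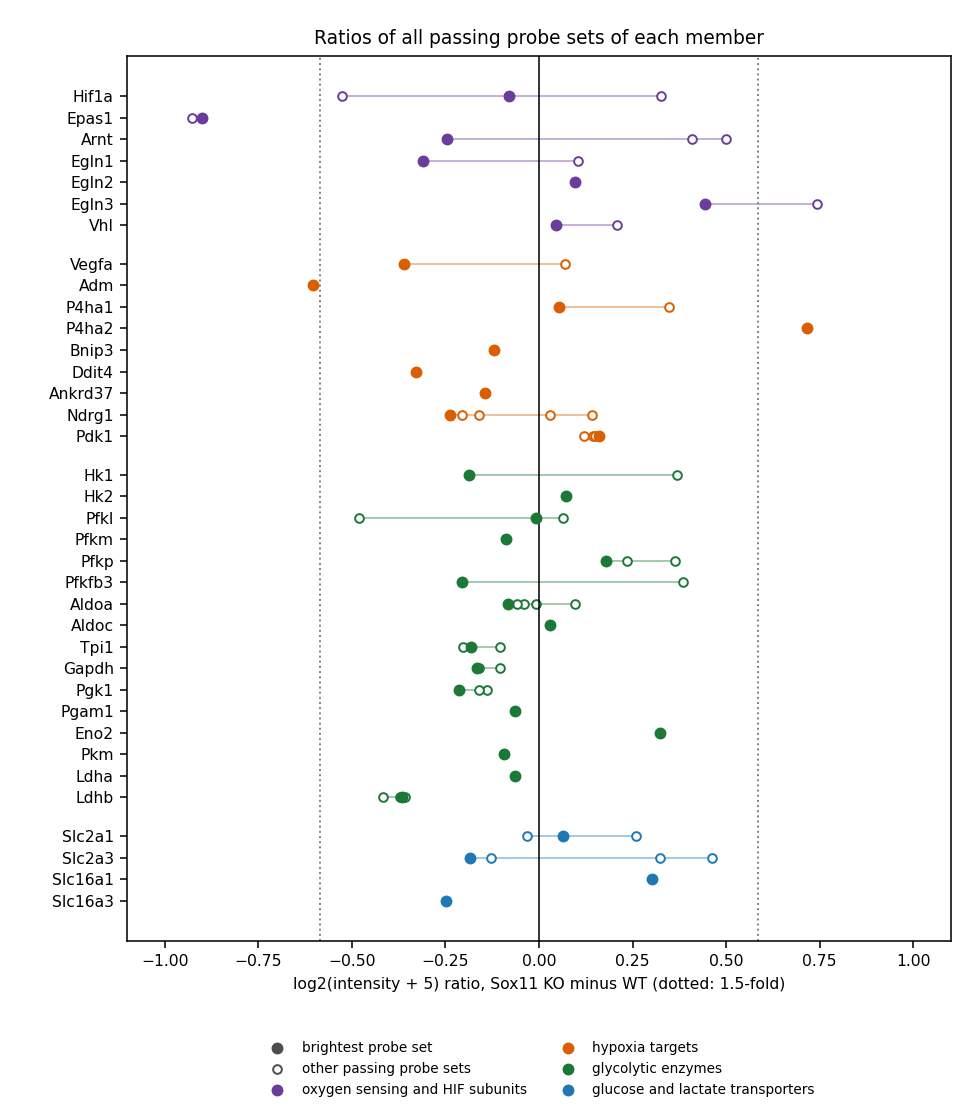
Log2 ratios (knockout minus wild type) of every probe set past the filter, by member and role, with the brightest probe set of each gene filled and dotted lines at 1.5-fold. Epas1, Ldhb, Pgk1, Tpi1 and Gapdh have all probe sets left of 0, Egln3, Pdk1, Pfkp, P4ha1 and Vhl have all of them right of 0, and Arnt, Hif1a and Slc2a3 spread over both sides. The second probe set of Epas1, the only passing one of Adm, the lowest of Pfkl and the highest of Slc2a3 passed through 1 array alone, so that their plotted ratios are not exact.

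Agreement between probe sets limited which members could be given a direction. Of 77 probe sets of members past the filter, of which 4 passed through 1 array alone, 2 reached 1.5-fold in the higher direction and 3 in the lower, against 7.1% of all probe sets with a single symbol apart by that much in either direction. Of 21 members with several passing probe sets, 10 had them all on the same side of 0, 5 lower (Epas1, Gapdh, Ldhb, Pgk1 and Tpi1) and 5 higher (Egln3, P4ha1, Pdk1, Pfkp and Vhl). The other 11 had probe sets of both signs, and 15 members had only a single passing probe set. Of the 5 lower, Gapdh, Ldhb, Pgk1 and Tpi1 lay in the brightest band, where 65.6% of all genes had a negative ratio. The share of all genes whose passing probe sets agree in sign was not computed, so these counts are no result about the members.

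Genes of the same pathways outside the 40 were set beside the members. Of 66 listed, 59 were measured and 42 passed the filter, with a median log2 ratio of 0.03, 26 positive and 16 negative. Ratios past 1.5-fold were seen in 5 of the 42 in the higher direction, against 3.81% of all genes, and in none in the lower direction, against 2.17%. Dim genes passed this fold more often: in the dimmest band, 308 of 2889 genes did so in the higher direction. One of the 5, Angptl4, is not shown to reach 1.5-fold, because the wild type lay under the filter. Anxa2, an annexin of membranes and matrix-facing cells, read 175.0 in the knockout and 87.9 in the wild type, a ratio of 0.95. Angptl4, a secreted inhibitor of lipoprotein lipase, read 25.5 in the knockout and 12.6 in the wild type, below the filter, and was at least 1.37-fold higher. Ppp1r3c, which targets a phosphatase to glycogen, read 418.9 in the knockout and 259.7 in the wild type, with a ratio of 0.68. Hif3a, a HIF alpha subunit that can act as an inhibitor, read 223.2 in the knockout and 143.1 in the wild type, with 0.62. The fifth, the liver glycogen phosphorylase Pygl, had 0.61 and is named because it completes the count. Hif3a and Epas1, both HIF alpha subunits, thus had ratios on opposite sides of 0.

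The arrays also differed in markers of other cells. General markers of neural retina were near level, with a median of -0.01 over 6 genes past the filter; Atoh7, a factor of ganglion cell formation, was highest at 0.87, followed in size by Crx at -0.26 and Isl1 at 0.20. All 3 rod markers past the filter were lower (Sag at -2.40, Nrl at -1.12, and Pde6b at least 1.96-fold lower). Pde6b passed only through the wild-type value. The 6 genes listed as markers of Müller glia had a median of -0.14, and 5 were negative. Their signal does not show that such cells were present at embryonic day 18. Rlbp1 was lowest at -0.99, followed by Car2 at -0.57, while Vim was at 0.25. Only Rlbp1 and Car2 lay outside the central range of their level bands. The brightest band held 4 of the 6, and 3 of these were negative, against 65.6% of all genes in that band. All 8 macrophage markers past the filter were higher (median 1.17), among them C1qb at 1.31, C1qa at 1.22 and Mpeg1, at least 2.75-fold. Mpeg1 passed only through the knockout value. The summed intensity of the 9 measured was 722.7 in the knockout and 333.4 in the wild type. The 5 lens genes past the filter went both ways: Crygf and Cryba1 had ratios of 1.97 and 0.68, and Crygd was higher by at least 3.26-fold, but Cryaa had -0.52 and Lim2 was at least 1.12-fold lower. All 5 pigment epithelium genes past the filter were higher, and 3 lay above the central range of their level bands. Dct had 0.91, and Ttr and Tyr were at least 1.12-fold and 1.41-fold higher. Ttr and Tyr passed only through the knockout value, which fixed their direction. The median of the 5, 0.79, is the ratio of Tyr and so is not exact. Only 2 of 8 muscle markers passed, Tnni1, at least 1.8-fold lower, and Acta1, at 0.24. The part of these markers in the values of the members was not tested.

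Vessel cells are known for making Epas1. Of 10 markers of endothelium and pericytes, 5 passed the filter, with a median of 0.58. The defining endothelial genes Pecam1, Cdh5, Tek and Tie1 were below the filter on both arrays, between 1.0 and 15.4 in the knockout and between 3.8 and 11.2 in the wild type. Kdr, a receptor for Vegfa that retinal progenitors also make, was the negative one at 456.1 in the knockout and 673.2 in the wild type, a ratio of -0.56. The pericyte genes Rgs5 and Pdgfrb had ratios of 0.66 and 0.58, the first above the central range of its level band and the other inside it. Cspg4, the other pericyte gene listed, was below the filter on both arrays, at 4.2 in the knockout and 11.6 in the wild type. Esam, which passed only through the knockout value, was at least 1.34-fold higher. Cldn5, the remaining marker past the filter, was near level at 145.2 in the knockout and 131.2 in the wild type, a ratio of 0.14. The summed intensity of the 10 was 902.3 in the knockout and 1005.1 in the wild type, a direction set by Kdr: without it the other 9 summed to 446.2 in the knockout and 331.9 in the wild type. None of the 4 measured red blood cell markers of 7 listed passed the filter. The part of vessel cells in the value of Epas1 was not tested.

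**Figure D4:**
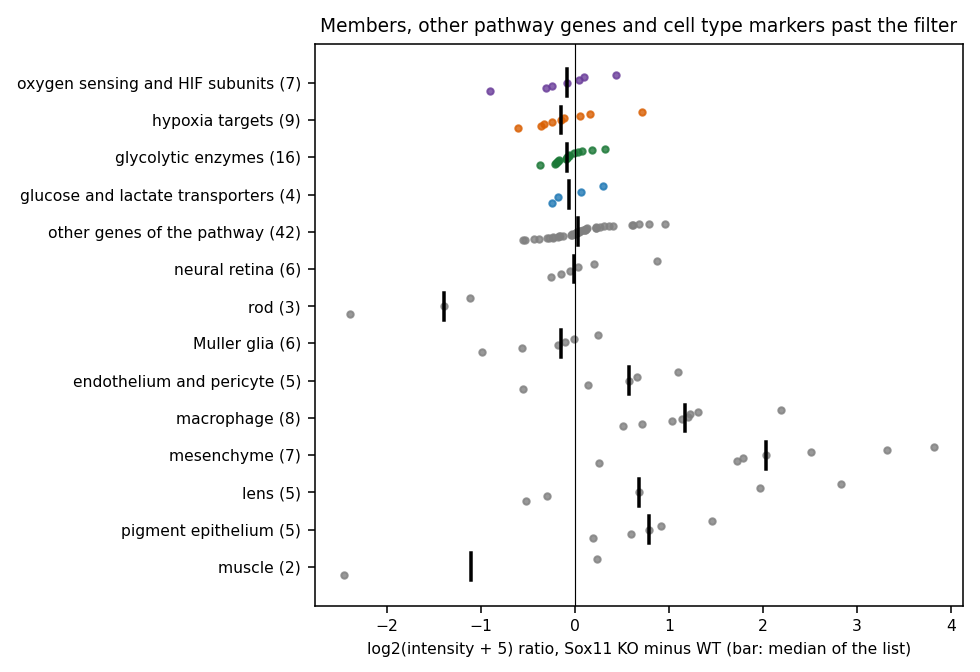
Log2 ratios (knockout minus wild type) of members by role, other pathway genes and cell type markers past the filter, 1 point per gene, with the median of each list as a bar and the number of genes in parentheses. The 4 member roles have medians between -0.14 and -0.06, while markers of rods lie left of 0 and those of macrophages and mesenchyme right of it.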

How the data were processed

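Retinal RNA was amplified and made into biotin-labelled cRNA for Affymetrix arrays, 1 per genotype, per the labels' protocols. The deposited values are linear probe set intensities as the authors scaled them; the software is not given in the sources used here. Genotypes came from the labels.

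Of 45101 probe sets, 34958 carried exactly 1 gene symbol in GEO's platform annotation. Each gene took its probe set with the highest mean intensity of both arrays, control probe sets included (these decide Gapdh). Ratios were knockout minus wild type of log2(intensity + 5), with no further scaling, for genes whose higher intensity reached 18.6, the pooled median, which stands in for background since detection calls were not used. Promoters were searched in a RefSeq table (GRCm38.p6). With 1 array per genotype no test was run. The procedure, in Python 3.11.15 with pandas 2.3.3, was tested on simulated data.

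The members, lists and alternatives were chosen with earlier results of these data known. All 40 members were named or counted; of other lists, the 4 pathway genes and up to 3 markers per list with the largest ratios were named, and the targeted gene Sox11. Beyond that rule, Pygl, Mxi1, Kdr, Cldn5, Pecam1, Cdh5, Tek, Tie1, Cspg4, Cryaa, Lim2, Xist and Kdm5d were named after their values were seen. The markers covered neural retina, rods, Müller glia, vessels, red blood cells, macrophages, mesenchyme, lens, pigment epithelium and muscle. Alternatives were centring, quantile normalization, loess (span 0.3), other pseudocounts and filters, and other choices of probe set; scaling on hybridisation controls, low intensities set to 18.6 and leaving out members of mixed sign were added after the data were seen.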

Additional observations from a re-analysis of the deposited data

How the results depend on the processing

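Over 13 alternatives, 438 of 445 member values moved by no more than 0.26, the SD between probe sets of a gene, and no member past 1.5-fold changed sign. Many of these values had no room to move, so the count is no measure of stability. Other filters and leaving out control probe sets or members of mixed sign left every remaining member value as it was. Setting low intensities to 18.6 changed only Adm. Centring and scaling on hybridisation controls moved all members by the same amount. The 7 larger moves, in Hif1a, Arnt, Hk1, Pfkl, Pfkfb3 and Slc2a3, came with another choice of probe set. A single sign over all alternatives that gave a value was kept by 21 members, 15 lower and 6 higher. The 15 include Egln1, Vegfa and Ndrg1, whose passing probe sets differed in sign, so a kept sign does not mean that probe sets agree. The count at least 1.5-fold apart was 3, and 1 with the pseudocount at 18.6 or with the filter at 109.4 (Epas1), where P4ha2 and Adm lay under 1.5-fold or failed the filter; it was 2 without s, x and a probe sets and with low intensities set to 18.6, where Adm was lost, and 4 with the median over probe sets, where Egln3 reached 0.59. The median of the transporters was -0.06, and 0.28 when s, x and a probe sets, whose probes fit more than a single transcript, were left out. The targets' median was below that of the oxygen-sensing genes except in that setting, where these had -0.25 and the targets -0.13. Members with a negative ratio numbered 24 of 36, and 14 of 25 without those of mixed sign. Scaling on hybridisation controls moved the median of all genes from -0.01 to -0.11, the members' to -0.19, and the share of all genes with a negative ratio from 52.1% to 68.9%. Of all genes apart by 1.5-fold, 63.7% were higher in the knockout (440 higher, 251 lower), but 44.3% after quantile normalization, 41.3% after loess, 41.8% with hybridisation controls and 52.1% with no filter (1179 higher, 1082 lower). The counts were 238 higher and 123 lower with the pseudocount at 18.6, and 111 and 77 with the filter at 109.4. No paired analysis was possible because each genotype had 1 array, and no array could be left out. Detection calls were not used, so the filter bounds what dim genes such as Adm and Car9 can show.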
